A study of Bos taurus with 33 samples.

Results

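The transcripts of bovine oocytes were compared with those of the cumulus cells (CC) that surrounded them, in 16 oocyte pools and 17 CC pools, which are all 33 libraries of the series. Each pool held the oocytes, or the CC, of 4 cumulus-oocyte complexes aspirated from the preovulatory follicles of suckled postpartum Hereford-Angus beef cows. All cows received GnRH on day -9 and prostaglandin F2α on day -2. In the small class the follicle measured at most 11.7 mm, and in the large class at least 12.7 mm, when a second GnRH dose was given on day 0 to bring on the gonadotropin surge. In the spontaneous class (11.7 to 14.0 mm) the cows came into estrus by themselves and received no second GnRH. Aspiration followed after about 23 h according to the protocol and about 20 h according to the sample characteristics. There were 6 small, 6 large and 4 spontaneous oocyte pools, and 6 small, 6 large and 5 spontaneous CC pools. The members of the comparison were taken from the labels alone: every oocyte library against every CC library, over the 14980 genes with a row in both count tables.

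The oocyte and its cumulus cells form a coupled unit. Cumulus cells are somatic cells of the granulosa lineage that send processes through the zona pellucida to the oocyte, and pass it small molecules through gap junctions. The oocyte in turn secretes growth factors of the TGF-beta family that act on the surrounding cells. After the gonadotropin surge the cumulus cells lay down a hyaluronan-rich matrix (cumulus expansion), while the oocyte, which has stopped most transcription and lives on stored mRNA, resumes meiosis.

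Levels are given as CPM, which for each gene is its count scaled to 1000000 reads on genes in a pool. The reads on genes numbered 7664375 to 17934916 per oocyte pool and 1911600 to 5772431 per CC pool, so that 3 reads, the limit that a count of 0 allows, correspond to 0.167 to 0.391 CPM in an oocyte pool and to 0.52 to 1.57 CPM in a CC pool. These limits cover counting error only. The 13 protein genes of the mitochondrial genome took 0.846 to 5% of reads in oocyte pools and 12.6 to 44% in CC pools. Oocyte and CC values came from separate tables, each scaled on its own, so cell type cannot be told apart from the table. Across the 11431 genes tested, the correlation of log2(CPM + 1) between pools was 0.861 to 0.924 within oocytes, 0.879 to 0.976 within CC and 0.31 to 0.482 between an oocyte and a CC pool, and the first principal component, which carried 77% of the variance, separated the cell types. These are correlations across genes, which are not independent replicates. In pooled tissue, fewer cells of a type and less RNA per cell cannot be told apart.

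The labels were checked first with markers of each cell type. GDF9, a growth factor made by the oocyte, measured 564 CPM in the lowest, 806 in the median and 1093 in the highest oocyte pool, against 0, 0.418 and 3.92 CPM in CC pools. ZP3, a glycoprotein of the zona pellucida, measured 447, 641 and 1128 CPM in oocyte pools, and all 17 CC pools together held 2 reads. Every oocyte pool stood above every CC pool for both genes. BMP15, the partner of GDF9, measured 1283, 1557 and 2034 CPM in oocyte pools and has no row in the CC table used here, so its comparison was not analysed here.

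The somatic markers were ordered the other way. INHA, the inhibin alpha subunit, measured 2.45, 30.9 and 138 CPM in oocyte pools and 999, 1868 and 4855 CPM in CC pools. INHBA, the beta A subunit shared by inhibin and activin, measured 1.81, 24.1 and 115 CPM against 244, 433 and 1037 CPM. VCAN, the matrix proteoglycan versican, measured 272, 863 and 3427 CPM against 8357, 15808 and 28109 CPM. None of these 3 genes overlapped between cell types, yet all had reads in every oocyte pool, and their oocyte values ranged far more widely than those of the oocyte genes. Two-sided exact permutation tests on mean CPM, 15 in all over 5 markers and the follicle classes, gave p = 0.00216 in small and large and p = 0.0159 in spontaneous follicles for every marker, the smallest values that 6 against 6 and 4 against 5 pools allow (Benjamini-Hochberg adjusted, 0.00325 and 0.0159). The markers were chosen for their known cell type, so these tests check the labels and are no result about the genes.

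**Figure D1:**
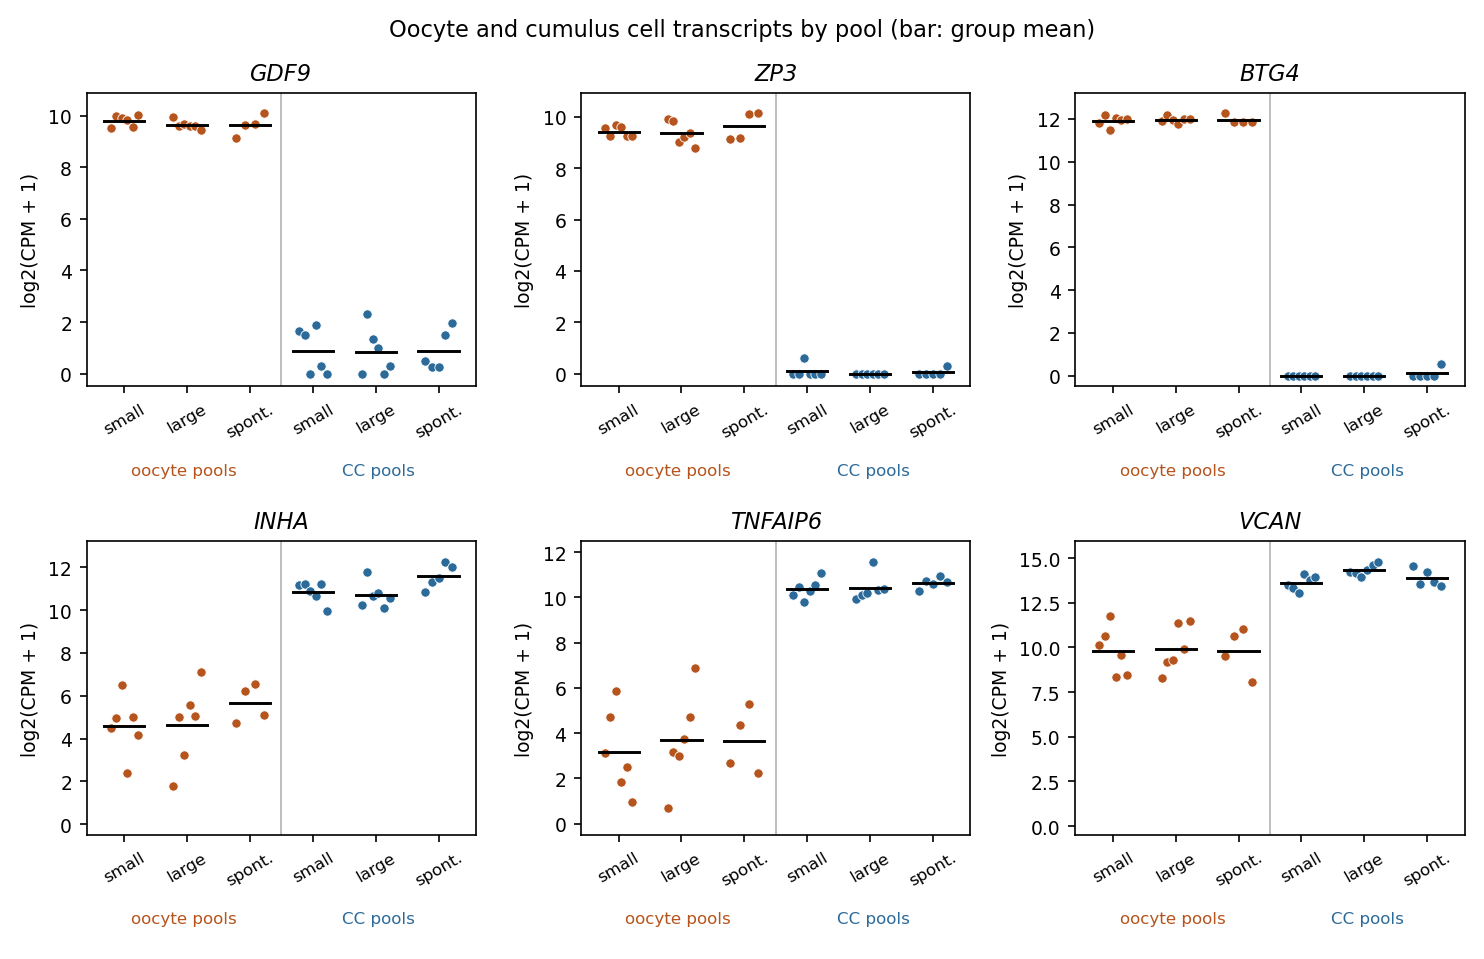
Level of 6 transcripts in each of 33 pools, as log2(CPM + 1) on the vertical axis, with oocyte pools (orange) to the left and CC pools (blue) to the right, by follicle class; points are pools and bars are group means. GDF9, ZP3 and BTG4 are at 3.92 CPM or less in every CC pool, while INHA, TNFAIP6 and VCAN are higher in CC pools and spread over several log2 units among oocyte pools.

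Differences across all genes were tested with limma on log2(CPM + 1), as the mean of the 3 oocyte group means minus the mean of the 3 CC group means. A gene was called where the Benjamini-Hochberg adjusted p was under 0.05, the log2 difference was at least 1 in size and its sign was the same in small, large and spontaneous pools. Of 11431 genes, 8176 (71.5%) were called, 4188 (36.6%) higher in oocytes and 3988 (34.9%) higher in CC. The adjusted p alone was under 0.05 for 9964 genes (87.2%), and 8190 also reached the size, of which 14 were lost because their sign differed between classes. The pools did not overlap at all for 4149 genes (36.3%), 2614 higher in oocytes (22.9%) and 1535 higher in CC (13.4%).

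In the main scaling, large differences lay more often on the oocyte side. Called differences over 3 log2 units numbered 1431 toward oocytes and 1263 toward CC, and those over 6 numbered 193 and 26. These counts include genes that passed the expression filter in a single cell type. They are given for the main scaling alone, and the balance between the sides depended on the scaling, as given below. In single classes, 8092 genes (70.8%) passed the adjusted p and the size in small, 8007 (70%) in large and 7709 (67.4%) in spontaneous follicles. In all 3 classes on their own, 3573 genes were higher in oocytes and 3219 in CC.

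The median log2 difference over all genes was 0.145. It became -0.156 when CPM was recomputed without the 13 mitochondrial genes and -0.198 with median-of-ratios scaling. The share of called genes that were higher in oocytes was 51.2% in the main scaling, 45.6% without the mitochondrial genes and 44.7% with median-of-ratios scaling, so the balance between the sides depended on how the tables were scaled. A gene measured in a single cell type could enter the test only through the group in which it was high, and had to differ. For this reason the 8083 genes that passed the filter in both cell types are given as a second background: 5103 of them (63.1%) were called, 2677 higher in oocytes (33.1%) and 2426 higher in CC (30%), with a median log2 difference of 0.134.

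Among the factors that oocytes secrete, both tested genes were higher in oocytes. For GDF9 the log2 difference was 8.83 ± 0.22 (SE) and lay between 8.75 and 8.92 in the 3 classes. BMP6 measured 30.9, 56.5 and 151 CPM in oocyte pools and 0, 0 and 6.44 CPM in CC pools. BMP6, another ligand of the TGF-beta family, was separated from CC by 5.43 ± 0.28 log2 units, without overlap. Neither gene passed the filter in CC, so both entered the test through oocytes alone and had to differ.

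Of 5 zona pellucida and sperm-binding genes tested, 3 were higher in oocytes and 2 in CC. The 3 passed the filter in oocytes alone and so had to differ. The 2 that passed in both cell types were both higher in CC, at a median of -2.14. ZP2, the zona glycoprotein that sperm bind, measured 3342, 4261 and 5802 CPM in oocyte pools, against 9 reads in all CC pools. The log2 difference of ZP2 was 11.93 ± 0.11, the largest among called genes with a symbol. OOSP1, which codes for an oocyte-secreted protein, measured 1004, 1799 and 2933 CPM against 10 reads (10.67 ± 0.14). The fitted difference of such genes depends on the pseudocount of 1 CPM, because CC pools were at or near the limit of detection. The 2 genes higher in CC were CD9 and UCHL1. CD9, a membrane tetraspanin needed for sperm-egg fusion, was 2.54 ± 0.30 log2 units lower in oocytes with overlapping pools. UCHL1, a ubiquitin hydrolase, measured 146, 223 and 320 CPM in oocyte pools and 448, 786 and 1154 CPM in CC pools.

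All 5 tested maternal-effect genes, which the embryo needs from the egg, were higher in oocytes, with a median log2 difference of 5.16. UHRF1, a reader of hemimethylated DNA, measured 815, 1036 and 1241 CPM in oocyte pools and 0, 1.17 and 11.2 CPM in CC pools (log2 difference 8.79 ± 0.24). NLRP5, KHDC3L, TLE6 and OOEP encode members of the complex beneath the oocyte surface, and their log2 differences were 6.60, 5.16, 4.82 and 4.21. Pools did not overlap for any of the 5, and none passed the filter in CC. Of 4 oocyte transcription factors, NOBOX (6.23 ± 0.20) and TBPL2 (4.75 ± 0.19) were higher in oocytes and the other 2 were not called. NOBOX and TBPL2 passed the filter in oocytes alone. The other 2 passed in both cell types, at a median of -0.36.

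Regulators of stored mRNA had some of the widest separations. BTG4, an adapter that brings the deadenylase to maternal mRNA, measured 2876, 3978 and 4892 CPM in oocyte pools, while all CC pools together held 2 reads (log2 difference 11.91 ± 0.09). IGF2BP3, an mRNA-binding protein, measured 850, 1112 and 1326 CPM against 0, 0.39 and 6.75 CPM (9.25 ± 0.24). YBX2, which packages stored mRNA in germ cells, measured 215, 320 and 471 CPM against 4 reads in CC. BTG4, IGF2BP3 and YBX2 did not pass the filter in CC and so had to differ. In this list 12 of 18 tested genes were higher in oocytes, 3 in CC and 3 were not called, with a median of 4.95. The shares over all genes were 36.6% and 34.9%.

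The same list divided by where its members were detected. The 12 genes higher in oocytes included PABPN1L (6.96), DAZL (6.53) and PATL2 (6.40), which did not pass the filter in CC. Of the 8 members that passed in both cell types, 3 were higher in oocytes and 2 in CC, and their median was 0.48. The 3 genes of the whole list that were higher in CC were TUT4, a terminal uridylyltransferase, at 2.01, 8.64 and 42.9 CPM in oocyte pools and 62.3, 123.9 and 163.7 CPM in CC pools, DDX6, an RNA helicase of repressed mRNA particles (-1.46 ± 0.10), and ZFP36L2, which binds AU-rich elements and passed the filter in CC alone (-1.13 ± 0.24).

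The genes of the meiotic cell cycle were higher in oocytes almost throughout: 27 of 30 tested, against 1 higher in CC and 2 not called, with a median of 4.39. Over all genes, 36.6% were higher in oocytes. Of the 23 members that passed the filter in both cell types, 21 were higher in oocytes and none in CC, at a median of 4.49. Over all such genes, 33.1% were higher in oocytes. Passing in CC asked for 5 CPM in only 5 CC pools, so such members could still be low in the others. AURKA, the kinase that matures spindle poles, measured 4468, 5330 and 5970 CPM in oocyte pools and 7.59, 12.3 and 29.8 CPM in CC pools, a log2 difference of 8.49 ± 0.13 (limma adjusted p = 3.96e-36). FBXO5, an inhibitor of the anaphase-promoting complex, measured 1306, 1536 and 1701 CPM against 0.346, 3.97 and 9.95 CPM (8.26 ± 0.19). Oocyte values of both genes lay close together, and every CC pool was lower.

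Further regulators of anaphase and M phase followed. PTTG1, or securin, which holds separase inactive, measured 2129, 2605 and 3234 CPM against 2.94, 12.8 and 29.8 CPM (7.66 ± 0.19). FBXO43, which keeps the egg arrested in metaphase, had 2 reads in all CC pools, against 106 CPM in the lowest oocyte pool (7.15 ± 0.15). CCNB3, a meiotic cyclin (7.07 ± 0.16), and SGO1, which protects centromeric cohesin (6.52 ± 0.15), were also separated without overlap. The single gene of the list on the CC side was WEE1, the somatic kinase that holds CDK1 inactive, at 0, 0.721 and 7.42 CPM in oocyte pools and 15.2, 26.5 and 50.3 CPM in CC pools (-3.74 ± 0.28). WEE2, its oocyte counterpart, measured 1699, 2240 and 2932 CPM in oocyte pools and has no row in the CC table used here.

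Of 11 genes of the piRNA pathway and germ line, 10 were higher in oocytes, at a list median of 4.25, and 3 of the 10 passed the filter in both cell types. The share higher in oocytes over all genes was 36.6%. GTSF1, a cofactor of PIWI proteins, measured 160, 235 and 333 CPM in oocyte pools and 0, 0 and 1.54 CPM in CC pools (7.63 ± 0.17), and MAEL, which acts in transposon silencing, measured 162, 211 and 488 CPM against 0, 0 and 11.3 CPM (7.52 ± 0.29). TDRD6, a tudor protein of germ cell granules, was ordered the other way, at 0, 0.877 and 13.9 CPM in oocyte pools and 19.9, 33 and 69.4 CPM in CC pools (-3.85 ± 0.31).

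Of 18 chromatin and DNA methylation genes, 8 were higher in oocytes, 4 in CC and 6 were not called, with a median of 0.67. The shares over all genes were 36.6% and 34.9%. Of the 14 members that passed the filter in both cell types, 6 were higher in oocytes and 2 in CC, against 33.1% and 30% of all such genes. DNMT3B, a de novo DNA methyltransferase, measured 321, 411 and 536 CPM in oocyte pools and 0, 1.56 and 4.31 CPM in CC pools (7.35 ± 0.21). ASF1B, a histone chaperone, was separated by 6.72 ± 0.19 and DNMT1, the maintenance methyltransferase, by 3.52 ± 0.10. Of the TET dioxygenases, TET3 was higher in oocytes (3.09 ± 0.19) and TET1 in CC (-3.54 ± 0.30). The others on the CC side were EED (-2.46), a subunit of the polycomb complex PRC2, HDAC2 (-1.62), a histone deacetylase, and ZFP57 (-2.10), which guards imprints and had 5 reads in all oocyte pools.

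The other genes with the largest differences toward oocytes were ACCSL (10.99), HIST1H1A (9.68), SAXO1 (9.47), TCL1B (9.26), ESRP1 (9.04), FOXR1 (9.02), SPAG17 (8.85) and ZNF215 (8.80), with SLBP2 between ACCSL and HIST1H1A. SLBP2 is the oocyte form of the protein that binds the stem-loop of histone mRNA, and measured 808, 1117 and 1298 CPM in oocyte pools against 5 reads in CC. HIST1H1A, a linker histone, measured 2162, 2608 and 3747 CPM against 0, 1.98 and 8.89 CPM. Histone genes have close copies among which counting can divide reads, so the level of a single copy is uncertain.

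Some of the best known oocyte transcripts stand outside this comparison, because they have rows in the oocyte table alone. The oocyte table lists 1299 genes without a row in the CC table used here, of which 47 had a mean of at least 100 CPM, and the CC table lists 1264 genes without a row in the oocyte table, none with such a mean. Among the former, DPPA3, a maternal protein that protects DNA methylation in the zygote, measured 1506, 1943 and 2492 CPM, NLRP9 836, 981 and 1264 CPM, ZP4, a further zona protein, 474, 779 and 971 CPM, and MOS, the kinase of metaphase arrest, 200, 228 and 419 CPM. These examples were chosen after their values were seen, as was WEE2 above. The CC table lists no gene without a read, whereas 201 genes of the oocyte table had none. Treating missing rows as 0 gave 11705 genes tested, with 4450 called higher in oocytes and 4000 in CC.

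On the CC side, the list of cumulus expansion genes had the most negative median of those examined, -4.51. In it, 9 of 11 tested genes were higher in CC and 2 in oocytes, against 34.9% and 36.6% of all genes. Of the 11, 3 passed the filter in CC alone. Among the 8 that passed in both, 6 were higher in CC and the median was -4.30. By that measure the cumulus and granulosa identity genes lay lower, at -4.42. TNFAIP6, which transfers heavy chains onto hyaluronan, measured 0.594, 7.82 and 116 CPM in oocyte pools and 880, 1302 and 3024 CPM in CC pools (log2 difference -6.97 ± 0.41, limma adjusted p = 7.73e-18). PTX3, a pentraxin that cross-links the matrix, measured 0, 0.967 and 17.7 CPM against 65.4, 251 and 999 CPM (-6.43 ± 0.45). RUNX2, a transcription factor, measured 0, 1.91 and 30.7 CPM against 71.7, 220 and 367 CPM (-5.92 ± 0.36). For all 3 the lowest CC pool exceeded the highest oocyte pool.

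The protease ADAMTS1 (-5.36), the matrix glycoprotein TNC (-4.51) and the proteoglycan SDC4 (-4.51) were lower in oocytes as well. VCAN itself had a log2 difference of -4.09 ± 0.29 and INHA and INHBA had -6.08 ± 0.34 and -4.37 ± 0.39. Without small oocyte pool 3 and large oocyte pool 6, which had the highest mitochondrial shares among oocyte pools, the differences were -4.33 for VCAN, -6.38 for INHA, -4.70 for INHBA and -7.36 for TNFAIP6.

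The other genes with the most negative differences were GSTA5 (-7.38), CRISPLD2 (-6.99), CAV1 (-6.80), B3GNT2 (-6.75), SMARCA1 (-6.68), MT1A (-6.68), C1QTNF1 (-6.62), GRB14 (-6.60), TM4SF1 (-6.57), ADAMTS9 (-6.33) and PHLDA1 (-6.21). CAV1, the coat protein of caveolae, measured 0, 3.15 and 23.1 CPM in oocyte pools and 116, 486 and 911 CPM in CC pools. SMARCA1, a chromatin remodelling ATPase, measured 3.11, 20.6 and 161 CPM against 806, 2262 and 4002 CPM. Pools overlapped for GSTA5 and CRISPLD2. GSTA5, a glutathione transferase with close paralogs among which reads can be split, ranged from 21 to 1713 CPM among CC pools.

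Of 18 cumulus and granulosa identity genes tested, 15 were higher in CC, 2 in oocytes and 1 was not called, with a median of -2.87. Over all genes, 34.9% were higher in CC. Of the 18, 6 passed the filter in CC alone, and the 2 higher in oocytes passed in oocytes alone. Among the 10 that passed in both, 9 were higher in CC and 0 in oocytes, at a median of -4.42. FSHR, the FSH receptor, measured 0, 0 and 8.81 CPM in oocyte pools and 13.9, 53.9 and 148 CPM in CC pools (-5.05 ± 0.31). The nuclear receptor NR5A2 (-5.08), the transcription factor GATA6 (-5.05), the activin-binding protein FST (-4.97) and the protease inhibitor SERPINE2 (-4.48) were likewise higher in CC without overlap. WT1, a transcription factor of granulosa precursors, was 2.28 ± 0.27 log2 units higher in oocytes at 2.21, 4.37 and 30.2 CPM, and GREM1, a BMP antagonist, 1.12 ± 0.30 higher, which fell below the size asked for when CPM was recomputed without the mitochondrial genes (0.94). AMHR2 and FOXL2, which mark granulosa cells, were below the filter in both cell types.

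Steroidogenic genes were mostly higher in CC, 10 of 13 tested against 34.9% of all genes, with 2 higher in oocytes and a median of -2.91. Of the 13, 5 passed the filter in CC alone. Among the 8 that passed in both cell types, 5 were higher in CC and 2 in oocytes, at a median of -2.31. HSD3B1, which makes progesterone from pregnenolone, measured 0, 3.93 and 16.7 CPM in oocyte pools and 85.6, 260 and 855 CPM in CC pools (-6.13 ± 0.43). The cholesterol-binding protein TSPO (-5.11), HSD11B1, which interconverts cortisone and cortisol (-4.90), HSD17B7 (-4.58) and CYP11A1, the side-chain cleavage enzyme (-4.15), were also higher in CC. FDX1, which passes electrons to CYP11A1, was 1.51 ± 0.14 higher in oocytes, at 107, 134 and 214 CPM against 23.7, 46 and 84.1 CPM.

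STAR, which delivers cholesterol to the inner mitochondrial membrane, was the exception of greatest size in the steroidogenic list. It measured 258, 388 and 464 CPM in oocyte pools and 0.52, 5.64 and 315 CPM in CC pools. The value of 315 CPM belonged to spontaneous CC pool 2, and the next highest CC pool had 12.6 CPM, so that this single pool made the ranges overlap. The log2 difference was 5.57 ± 0.38 (limma adjusted p = 4.95e-16), and 5.94 without that pool. DESeq2 gave STAR no adjusted p.

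HAS2, the hyaluronan synthase of cumulus expansion, was higher in oocytes although most of its pathway was higher in CC. It measured 132, 186 and 248 CPM in oocyte pools and 19.4, 50.5 and 176 CPM in CC pools, with overlap, and the log2 difference was 1.55 ± 0.21 (limma adjusted p = 2.84e-08). DESeq2 gave 0.99, just under the size asked for. The hyaluronan receptor CD44 lay on the same side at 0.973, 20.1 and 36.8 CPM against 0.976, 4.31 and 19.5 CPM (1.55 ± 0.38). Spontaneous CC pool 4 had the highest HAS2 value among CC pools, and strand was not kept by the library, so reads from an antisense transcript cannot be told apart from those of the gene.

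**Figure D2:**
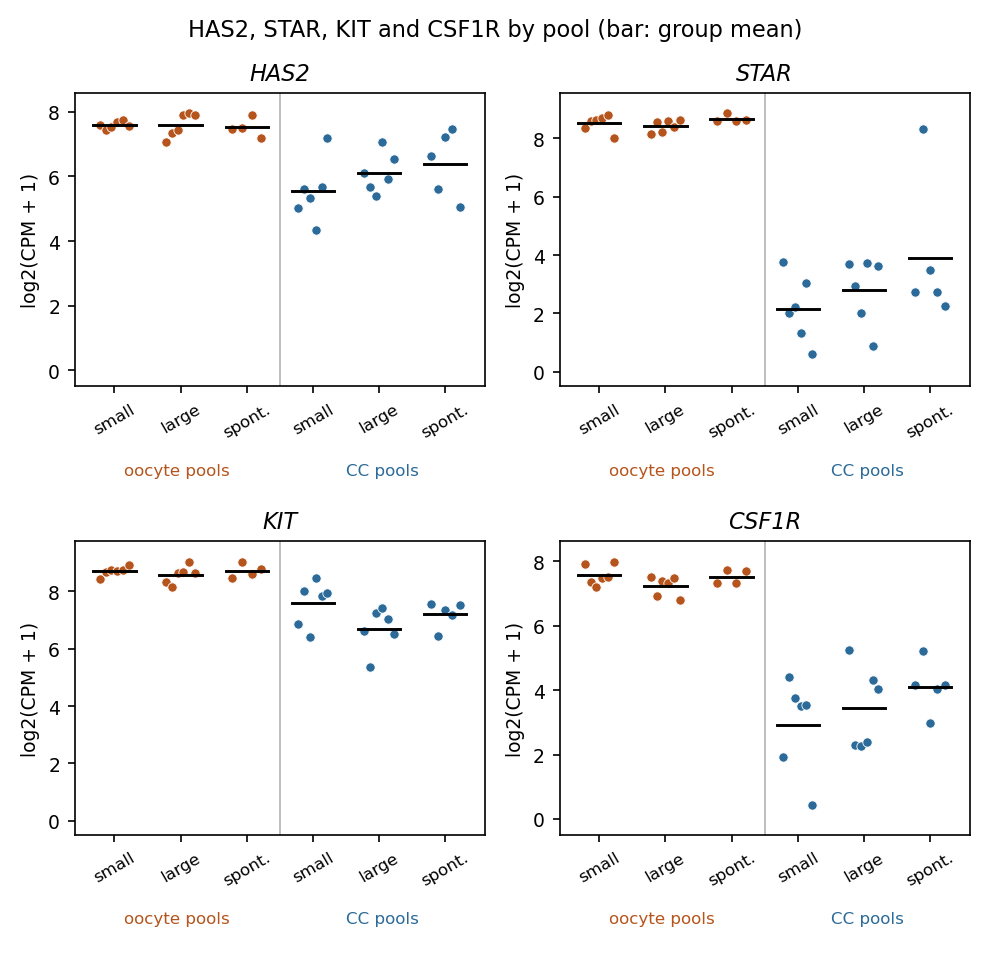
HAS2, STAR, KIT and CSF1R in each of 33 pools, as log2(CPM + 1), with oocyte pools (orange) to the left and CC pools (blue) to the right, by follicle class; points are pools and bars group means. Oocyte pools are tightly grouped for all 4 genes, and the high STAR point among CC is spontaneous CC pool 2 at 315 CPM.

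Genes of contact between the cells were distributed over both sides: 8 of 13 were higher in oocytes, 3 in CC and 2 were not called, with a median of 1.93. The shares over all genes were 36.6% and 34.9%. The connexins separated by member. GJA1 (connexin 43), which joins cumulus cells to each other, measured 14, 30.3 and 106 CPM in oocyte pools and 278, 478 and 912 CPM in CC pools (-3.67 ± 0.22). GJA4 (connexin 37), which joins cumulus cells to the oocyte, measured 29.2, 46.1 and 101 CPM against 0, 0 and 2.13 CPM (5.54 ± 0.20), and GJC1 (3.58 ± 0.13) lay on the same side.

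The cadherins divided in the same manner. CDH1 (E-cadherin) measured 103, 193 and 388 CPM in oocyte pools and 0, 7.23 and 39.6 CPM in CC pools (4.74 ± 0.35). CDH2 (N-cadherin) measured 8.87, 51.2 and 160 CPM against 374, 794 and 1046 CPM (-4.13 ± 0.27). Pools did not overlap for either gene. FSCN1, an actin bundler of the transzonal projections, was higher in CC (-2.29 ± 0.33).

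For the ligands and receptors through which the cells signal to each other, 33 of 48 genes were tested: 13 were higher in oocytes, 12 in CC and 8 were not called, with a median of 0.07, and these shares were near those of all genes (36.6% and 34.9%). This median changed sign with the scaling and was -0.26 without the mitochondrial genes. Of the 24 members that passed the filter in both cell types, 7 were higher in oocytes and 9 in CC. KIT and its ligand lay on opposite sides. The receptor KIT measured 283, 407 and 525 CPM in oocyte pools and 39.9, 152 and 350 CPM in CC pools (1.5 ± 0.17), and KITLG measured 2.67, 8.6 and 21.7 CPM against 50.2, 113 and 249 CPM (-3.59 ± 0.25). KIT thus overlapped between cell types, whereas KITLG did not.

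The TGF-beta family receptors were not all on the side of the CC. Of the type I receptors, ACVR1 measured 118, 165 and 255 CPM in oocyte pools and 5.47, 14.5 and 31.2 CPM in CC pools (3.36 ± 0.18), BMPR1A 305, 366 and 461 CPM against 49.7, 78.5 and 107 CPM (2.27 ± 0.09), and ACVR1B was 2.23 ± 0.26 higher in oocytes. BMPR1B (0.91 ± 0.19) and TGFBR1 (-0.16 ± 0.25) were not called. Of the type II receptors, BMPR2, through which GDF9 and BMP15 signal, measured 219, 277 and 396 CPM against 177, 287 and 405 CPM and was not called, ACVR2B was higher in oocytes (1.45 ± 0.27), and ACVR2A (-1.24 ± 0.21) and TGFBR2 (-2.44 ± 0.32) were higher in CC, as was the co-receptor TGFBR3 (-1.61 ± 0.15). BMPR2 values nearly coincided between cell types, and the sign of its difference turned with the scaling, to -0.26 without the mitochondrial genes.

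IGF2, a growth factor of the insulin family, measured 0, 0.476 and 17.1 CPM in oocyte pools and 132, 290 and 528 CPM in CC pools (-7.15 ± 0.30). INSR (-3.83 ± 0.40), IGF1R (-1.21 ± 0.17), EGFR (-1.23 ± 0.17) and its partner ERBB2 (-2.81 ± 0.27) were lower in oocytes, while IGF2R (-0.76) did not reach the size. EREG, an EGF-like ligand induced by the surge, had 2 reads in all oocyte pools and 0, 1.5 and 286 CPM in CC pools, with a log2 difference of -2.07 ± 0.40. Its value of 286 CPM belonged to spontaneous CC pool 4, the next highest pool had 15.1 CPM, and the difference was -1.73 without that pool. DESeq2, which adds no pseudocount, gave -8.81. IGF2, ERBB2 and EREG passed the filter in CC alone and so had to differ.

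Of the tested ligands and receptors, 4 act on cAMP, the messenger that holds the oocyte in meiotic arrest. PDE3A, the oocyte phosphodiesterase that breaks down cAMP, measured 52.2, 138 and 189 CPM in oocyte pools and 4 reads in all CC pools (6.90 ± 0.17). GPR3, the receptor that keeps cAMP high, measured 73.2, 109 and 201 CPM against 0, 0.78 and 6.72 CPM (5.99 ± 0.27). ADCY3, an adenylyl cyclase, was 2.11 ± 0.27 and PDE3B 2.38 ± 0.27 higher in oocytes. NPPC, which codes for the cumulus ligand of this pathway, was below the filter.

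Of the other pairs, the Notch ligand JAG1 measured 117, 186 and 239 CPM in oocyte pools and 3.45, 9.82 and 62.2 CPM in CC pools (3.78 ± 0.30), and its receptor NOTCH1 was 2.63 ± 0.28 higher in oocytes, while NOTCH2 (0.47 ± 0.12) was not called. IL6ST, the shared receptor of the interleukin 6 family, measured 3.74, 16.8 and 43.2 CPM against 299, 598 and 1030 CPM (-5.06 ± 0.25), and LIFR had a difference of -0.91 ± 0.17, short of the size. FGFR1 was higher in CC (-2.28 ± 0.21), and FGF2 (-0.89 ± 0.26) and FGFR2 (0.86 ± 0.29) were not called. IGF2R, LIFR and FGF2 passed the size without the mitochondrial genes, at -1.08, -1.23 and -1.21.

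**Figure D3:**
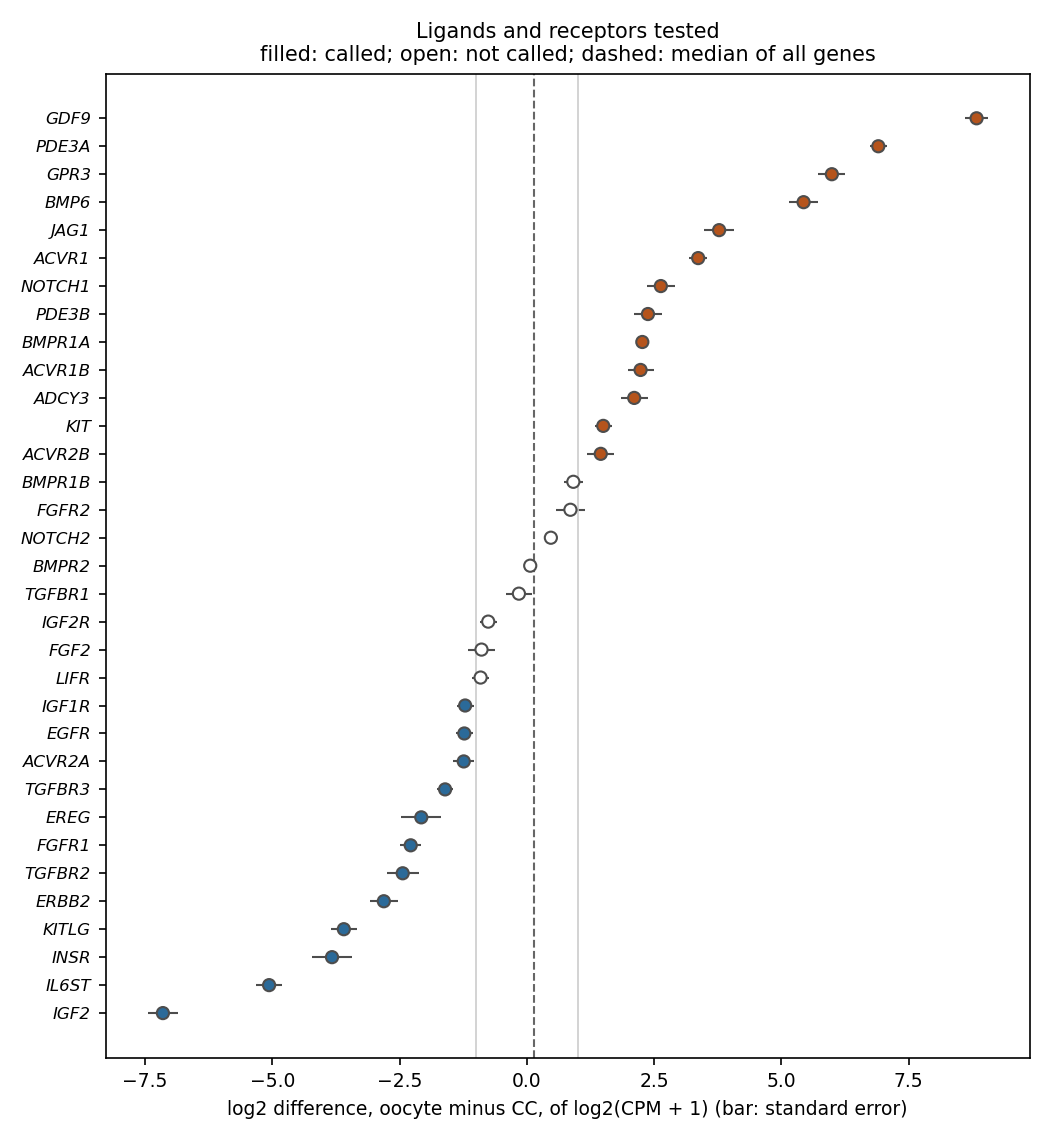
Log2 difference (oocyte minus CC) of log2(CPM + 1) for the 33 ligands, receptors and cAMP genes tested, with bars for the standard error; filled points were called and open points were not, and the dashed line is the median of all genes. GDF9 and PDE3A lie farthest toward oocytes, at 8.83 and 6.90, and IGF2 farthest toward CC, at -7.15. Each of these genes passed the filter in a single cell type.

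Behind the receptors, 7 of 15 SMAD genes and inhibitors of the family were higher in oocytes, 6 in CC and 2 were not called, at a median of 0.50, again near the division of all genes (36.6% and 34.9%). The receptor-regulated SMAD3 was higher in oocytes (3.76 ± 0.23). SMAD4, the shared partner, measured 8.42, 17.1 and 38.5 CPM in oocyte pools and 122, 180 and 215 CPM in CC pools (-3.19 ± 0.16). Of the inhibitor of DNA binding proteins, ID3 measured 431, 965 and 1491 CPM against 1.42, 9.08 and 38.6 CPM (6.30 ± 0.24), and ID2 lay on the CC side (-3.33 ± 0.35). The follistatin-like genes FSTL3 (-3.87) and FSTL1 (-2.73) were higher in CC, and the ubiquitin ligase SMURF1 in oocytes (4.24).

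Glycolytic enzymes were higher in CC for 17 of 21 genes tested, with 2 higher in oocytes and 2 not called, and a median of -2.67. Over all genes, 34.9% were higher in CC. Among the 17 that passed the filter in both cell types, 14 were higher in CC, against 30% of all such genes. PGK1, phosphoglycerate kinase, measured 7.06, 36.3 and 158 CPM in oocyte pools and 555, 1055 and 1434 CPM in CC pools (-4.59 ± 0.28). PFKL, a phosphofructokinase, measured 0, 5.19 and 17.6 CPM against 69.5, 130 and 199 CPM (-4.41 ± 0.25). TPI1 (-4.21), ENO1 (-4.10) and ENO2 (-3.91) were separated without overlap as well.

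The exceptions were isoforms. LDHC, the germ cell lactate dehydrogenase, measured 50.9, 95.1 and 177 CPM in oocyte pools and 0, 0.523 and 2.71 CPM in CC pools (5.88 ± 0.20), and PFKFB2, which makes the activator of phosphofructokinase, measured 29.9, 61 and 123 CPM against 2.08, 8.17 and 17.5 CPM (3.02 ± 0.25).

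In glucose, lactate and pyruvate handling, 11 of 20 genes were higher in CC, 5 in oocytes and 4 were not called, with a median of -1.84. The shares over all genes were 34.9% and 36.6%. The lactate exporter SLC16A3 (-3.60 ± 0.41) and the glucose transporter SLC2A3 (-3.45 ± 0.32) were higher in CC, as were PDHB (-3.58), a subunit of pyruvate dehydrogenase, PDK4 (-3.28), which inhibits that enzyme, and MPC2 (-2.87), a subunit of the mitochondrial pyruvate carrier. CS, citrate synthase, measured 885, 1249 and 1535 CPM in oocyte pools and 140, 238 and 295 CPM in CC pools (2.39 ± 0.09). PDK2 (1.72), PDHX (1.71), SLC2A8 (1.49) and the lactate and pyruvate transporter SLC16A1 (1.03) were also higher in oocytes, though SLC16A1 fell to 0.71 without the mitochondrial genes in the CPM, and fell just short of the size when any 1 of 5 pools was left out (0.97 to 0.999), namely small oocyte 6, spontaneous oocyte 2, large CC 6, spontaneous CC 1 and spontaneous CC 5.

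Cholesterol genes were higher in CC for 16 of 23 members and in oocytes for 3, against 34.9% and 36.6% of all genes, with a median of -1.44. SCARB1, which takes cholesterol from HDL, measured 0, 5.47 and 33.3 CPM in oocyte pools and 165, 421 and 1280 CPM in CC pools (-5.97 ± 0.40). HSD17B7 (-4.58) and SQLE (-2.58), enzymes of the later steps of synthesis, lay on the same side. HMGCS1, an enzyme of the early steps, measured 794, 1031 and 1293 CPM in oocyte pools against 85.9, 264 and 562 CPM in CC pools (2.06 ± 0.14). INSIG1, which restrains the pathway (1.47), and NPC1, which moves cholesterol out of lysosomes (1.32), were the others higher in oocytes, and NPC1 fell to 0.95 with median-of-ratios scaling.

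Among 14 amino acid transporters tested, 6 were higher in oocytes and 6 in CC, near the division of all genes (36.6% and 34.9%), with a median of 0.51. SLC38A2, a sodium-coupled carrier of neutral amino acids, measured 1.7, 14.7 and 45.1 CPM in oocyte pools and 373, 655 and 994 CPM in CC pools (-5.66 ± 0.31). SLC1A5, which exchanges glutamine and other neutral amino acids, measured 194, 270 and 397 CPM against 0.568, 7.31 and 21.1 CPM (5.24 ± 0.23). Neither gene overlapped between cell types. SLC38A1 (-4.58), SLC7A5 (-3.30) and SLC38A5 (-2.06) were higher in CC and SLC36A1 (2.0) in oocytes.

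All 13 mitochondrially encoded protein genes were higher in CC, against 34.9% of all genes, with log2 differences from -4.60 to -3.08 and a median of -3.74. COX1, a subunit of cytochrome oxidase, measured 1461, 2382 and 8040 CPM in oocyte pools and 29160, 58850 and 113950 CPM in CC pools (-4.60 ± 0.16). COX2 (-4.11), ATP8 (-3.90), ND4 (-3.89), ND4L (-3.88) and COX3 (-3.78) were separated without overlap too. These are shares of reads and do not count mitochondria. The nuclear genes of the respiratory complexes were less far apart: 52 of 80 were higher in CC, 1 in oocytes and 27 were not called, with a median of -1.40. Their shares can be set beside 34.9% and 36.6% of all genes. NDUFB11, a subunit of complex I, had the most negative of these (-4.35 ± 0.38), followed by NDUFC2 (-3.82), NDUFB10 (-3.75) and CYC1 (-3.59), and the exception, NDUFB6 (1.05 ± 0.15), lost its call without the mitochondrial genes in the CPM (0.73).

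Cytosolic ribosomal protein genes were higher in CC for 81 of 83 rows tested, against 34.9% of all genes, none was higher in oocytes, and the median was -2.47. Summed over the list, oocyte pools had 7152 to 17370 CPM and CC pools 39728 to 66853 CPM, with no overlap. RPL9 measured 4.25, 41.2 and 134 CPM in oocyte pools and 440, 678 and 920 CPM in CC pools (-4.02 ± 0.25), and RPL23 (-3.73), RPL32 (-3.67) and RPS3A (-3.41) were next. Several ribosomal symbols have more than 1 row, and processed pseudogenes can take reads of their parents, so single rows are uncertain. Proteasome subunits were higher in CC for 22 of 40 and in oocytes for 5, against 34.9% and 36.6% of all genes, at a median of -1.12. PSMA1 (-4.81 ± 0.40) and PSMA2 (-4.74 ± 0.40), which form the outer ring of the core, were lowest in oocytes. PSMA8, the meiotic form of a ring subunit, was highest, at 0, 11.6 and 68.5 CPM in oocyte pools and 0, 0.209 and 4 CPM in CC pools (2.69 ± 0.41).

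Early response transcription factors, which hormone signals switch on within a short time, were higher in CC for 9 of 18 and in oocytes for 3, with a median of -0.91. Of the 18, 4 passed the filter in CC alone and 2 in oocytes alone. Among the 12 that passed in both, 5 were higher in CC and 1 in oocytes, at a median of -0.23. Over all genes that passed in both, 30% were higher in CC and 33.1% in oocytes. FOS measured 0, 0.801 and 13.3 CPM in oocyte pools and 76.9, 141 and 264 CPM in CC pools (-5.78 ± 0.33), and KLF6 (-4.21), IER3 (-3.41) and MYC (-3.29) lay on the same side. The orphan receptor NR4A1 measured 85.6, 149 and 217 CPM against 2.09, 5.69 and 24.8 CPM (4.29 ± 0.26), and KLF4 (3.72) and FOSL1 (2.51) were also higher in oocytes. Matrix genes were higher in CC for 24 of 30 and in oocytes for 3, against 34.9% and 36.6% of all genes, with a median of -3.54. Of the 30, 11 passed the filter in CC alone and 1 in oocytes alone. Among the 18 that passed in both, 13 were higher in CC and 2 in oocytes, at a median of -3.32. The fibulin FBLN1 (-6.61 ± 0.30), the protease inhibitors TIMP2 (-6.05) and TIMP1 (-5.71), the laminin chain LAMA1 (-5.69), the plasminogen activator PLAT (-5.69) and SPARC (-5.44) had the most negative values. FBN1, or fibrillin, measured 168, 239 and 284 CPM in oocyte pools and 13.8, 65.5 and 184 CPM in CC pools (1.81 ± 0.23), and the nidogens NID1 (1.72) and NID2 (1.20) were also higher in oocytes, although NID2 fell to 0.87 without the mitochondrial genes.

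**Figure D4:**
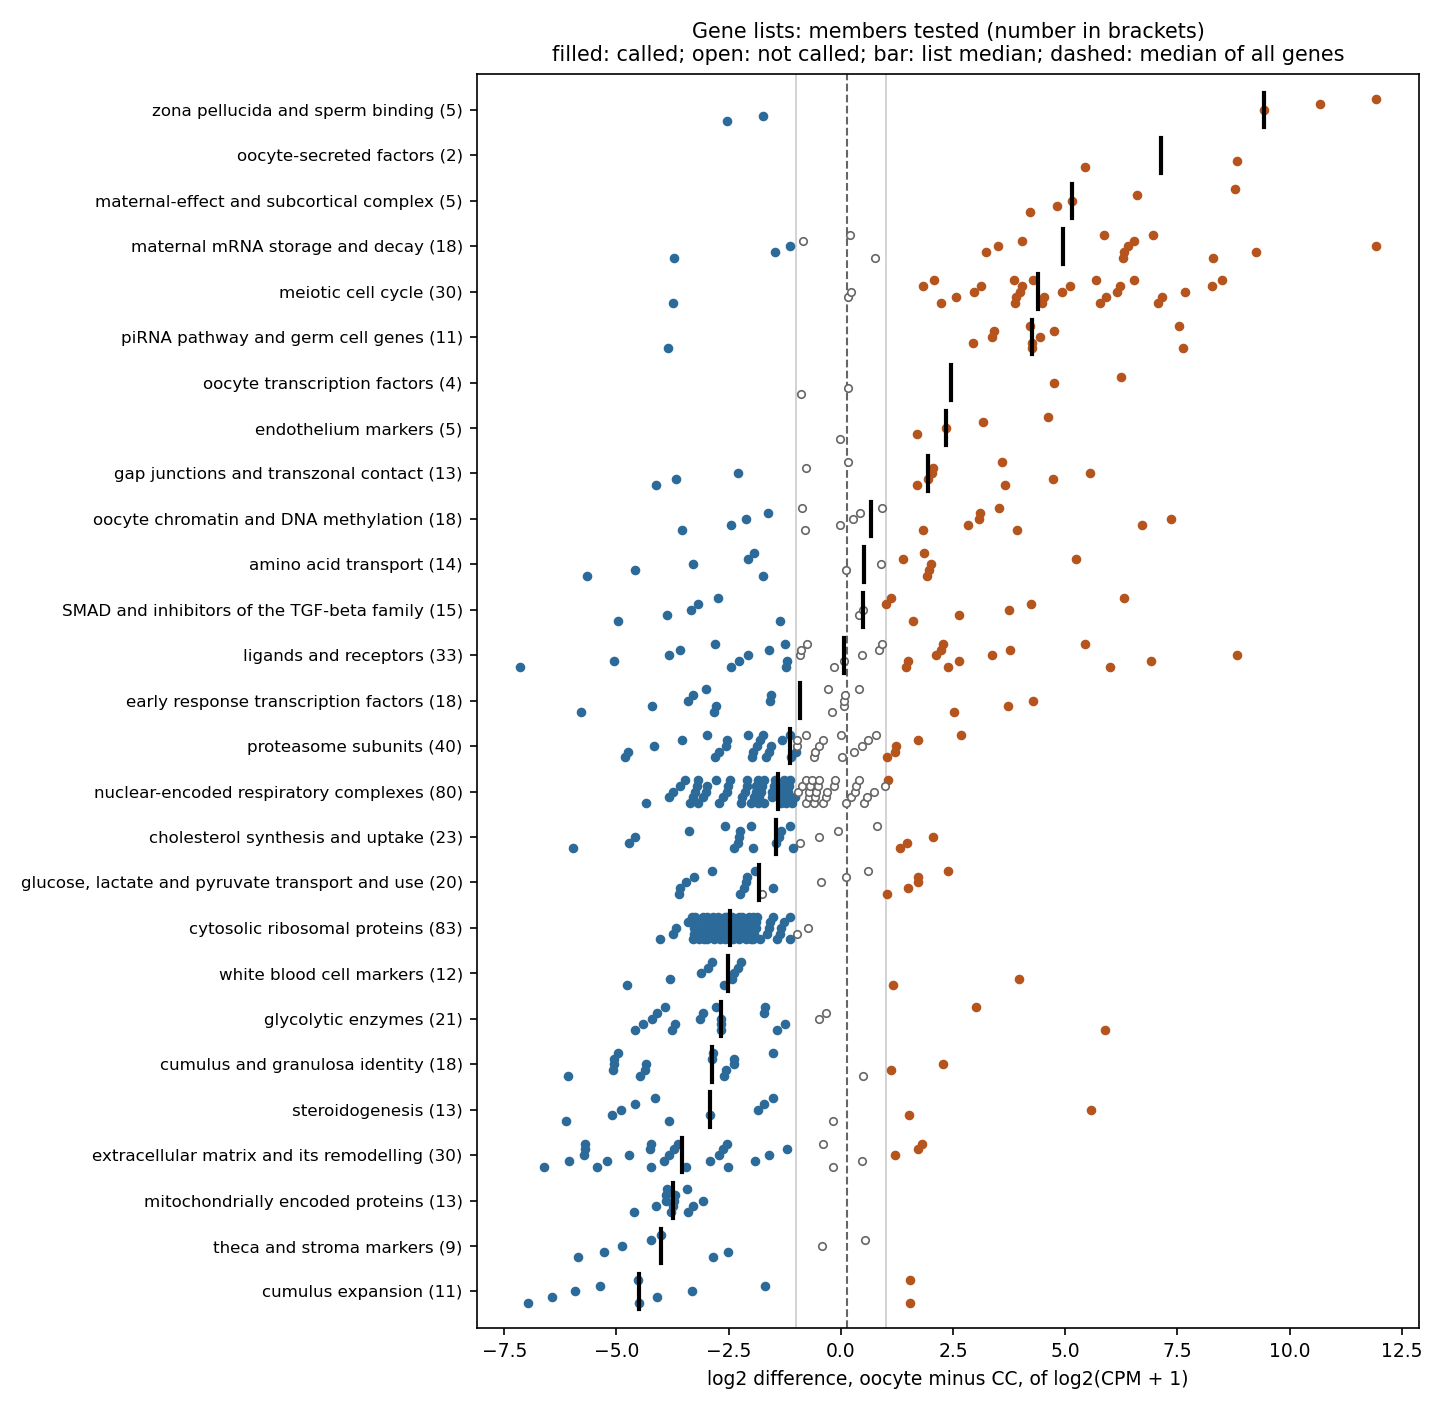
Log2 difference (oocyte minus CC) of log2(CPM + 1) for each tested member of the gene lists, with the number tested in brackets; filled points were called (orange higher in oocytes, blue higher in CC), open points were not, bars are list medians and the dashed line is the median of all 11431 genes, 0.145. List medians run from 9.42 for zona pellucida and sperm-binding genes to -4.51 for cumulus expansion.

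Markers of other cells were measured in both kinds of pool. Of 12 white blood cell markers tested, 10 were higher in CC, against 34.9% of all genes, with a list median of -2.51. However, 9 of the 12 passed the filter in CC alone. The 2 that passed in both cell types lay on opposite sides, at a median of 0.77. Summed over the list, oocyte pools had 125 to 261 CPM and CC pools 60.7 to 431 CPM. PTPRC (CD45), the common leukocyte marker, had 5 reads in all oocyte pools and measured 1.14, 7.1 and 24.4 CPM in CC pools, and CD74, the invariant chain of class II antigen presentation, measured 0, 0 and 18.5 CPM against 13.9, 41 and 125 CPM (-4.77 ± 0.37). CSF1R, the receptor of macrophage colony-stimulating factor, was the exception, at 111, 172 and 254 CPM in oocyte pools and 0.346, 12.6 and 37.3 CPM in CC pools (3.96 ± 0.29), and formed most of the oocyte sum. CD3E (1.16 ± 0.38) lost its call with median-of-ratios scaling (0.93).

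Theca and stroma markers were higher in CC for 7 of 9, against 34.9% of all genes, with a median of -4.01. Of the 9, 3 passed the filter in CC alone, and 4 of the 6 that passed in both were higher in CC. The sum of these markers was 31.8 to 225 CPM per oocyte pool and 623 to 2241 CPM per CC pool. LUM, a proteoglycan of connective tissue, measured 0, 4.51 and 49.1 CPM in oocyte pools and 131, 371 and 880 CPM in CC pools (-5.86 ± 0.44). INSL3, a hormone of theca cells, measured 0, 12.4 and 119 CPM against 108, 360 and 1162 CPM (-5.28 ± 0.52), while CYP17A1, the defining theca enzyme, was below the filter. DCN (-4.87), COL1A1 (-4.24), PDGFRA (-4.01) and MYH11 (-2.86) were also higher in CC. Of 5 endothelium markers tested, 4 were higher in oocytes, all of which passed the filter in oocytes alone, and the 1 that passed in both was not called. TEK measured 59.3, 82.4 and 104 CPM in oocyte pools and 0.363, 2.54 and 9.72 CPM in CC pools (4.62 ± 0.26), and TIE1 (3.17), VWF (2.34) and ERG (1.70) were the others. The endothelial markers PECAM1, CLDN5 and ESAM were below the filter, 2 further markers of the list have a row in the CC table alone, and no red blood cell marker could be tested. The part of such cells in the differences of the CC was not tested.

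Reads on the markers of the opposite cell type were unequal in the 2 directions. Over the 24 cumulus expansion and identity genes that were higher in CC, each oocyte pool's level was taken as a percent of the CC mean, and the median over the genes was 0.19% in the lowest, 3.18% in the median and 10.1% in the highest oocyte pool. For the 10 oocyte markers tested, the same measure in CC pools was 0%, 0.0035% and 0.311%, and their sum was 2.09 to 13.7 CPM in CC pools against 9267 to 12187 CPM in oocyte pools. The 24 CC genes summed to 462 to 4361 CPM in oocyte pools. These genes were picked by their difference in the same pools, so the percentages are a description. Large oocyte pool 6, at 10.1%, and small oocyte pool 3, at 7.53%, also had the highest mitochondrial shares among oocyte pools, 2.68% and 5%. The next highest, spontaneous oocyte pool 3 at 7.07%, had the lowest mitochondrial share, 0.846%, so the measures did not always go together. CC left on or in the oocytes after denuding and transcripts of the oocyte's own cannot be told apart here.

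**Figure D5:**
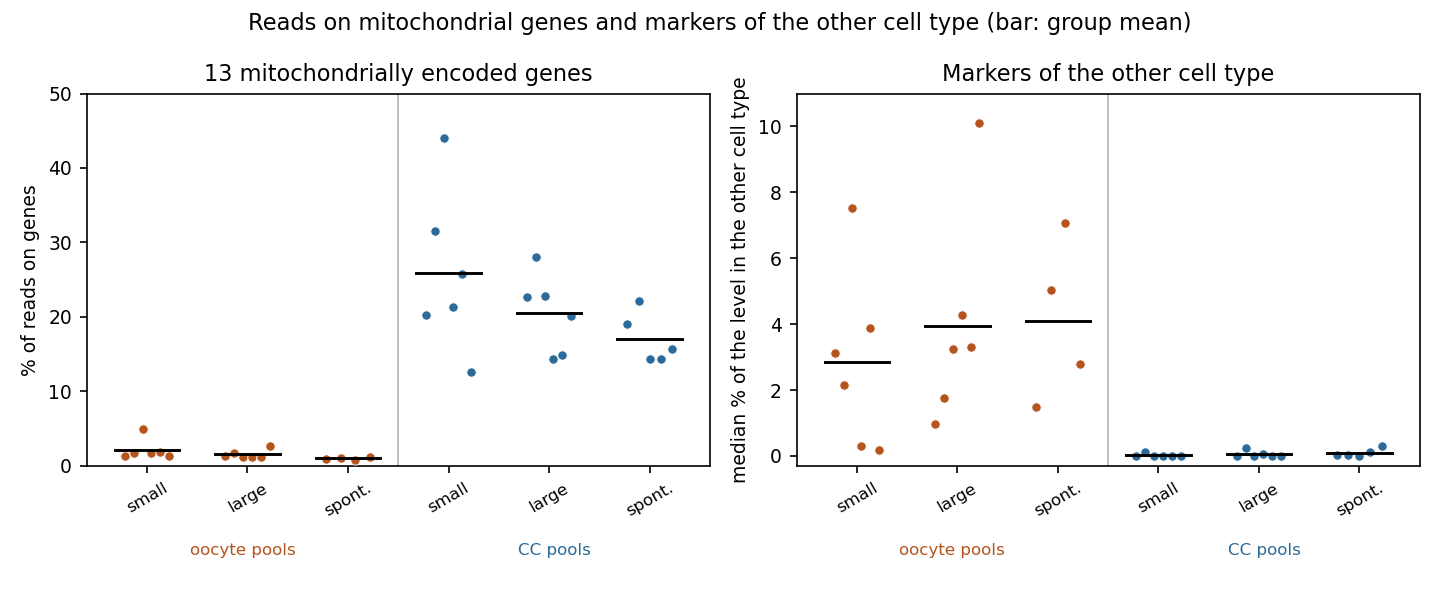
Left, percent of each pool's reads on the 13 mitochondrially encoded protein genes; right, median level of the opposite cell type's markers as a percent of their mean in that type; points are the 33 pools by cell type and follicle class, and bars are group means. CC pools run from 12.6 to 44% mitochondrial reads and oocyte pools from 0.846 to 5%, while oocyte pools reach 10.1% of CC marker levels and CC pools 0.311% of oocyte marker levels.

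Whether the oocyte minus CC difference itself changed with the follicle class was tested with an F test in the same fit. No gene passed (0 of 11431, 0%), the smallest adjusted p by limma was 0.448, and 579 genes had an unadjusted p under 0.05. The edgeR quasi-likelihood test called 8 genes and DESeq2 called 108, among them all 8 of edgeR. The genes with the smallest p by limma were GPHA2, KIF26B, SLC35F5, AHSA2 and TGFB1I1. GPHA2, a glycoprotein hormone subunit, had log2 differences of 3.44 in small, 0.68 in large and 1.41 in spontaneous follicles, and KIF26B, a kinesin, had 1.13, 2.89 and 0.44. Their CC pools together held 7 and 5 reads.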

How the data were processed

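Oocytes were denuded by pipetting in hyaluronidase. RNA of pools of 4 oocytes, or of the CC of the same complexes, was amplified (Ovation RNA-Seq V2), sequenced as single-end reads and, per the labels and methods, counted with featureCounts against the Ensembl genes of UMD3.1. The authors deposited CPM per gene, in 1 table per cell type. Each value was a whole number of reads (tolerance 0.01 reads; 100% of values in every pool), and the tables were joined on the Ensembl identifier. Strand was not kept, so a gene and its antisense partner cannot be told apart. A gene was tested where at least 4 oocyte or 5 CC pools reached 5 CPM. The log2(CPM + 1) values were fitted with limma 3.58.1 (R 4.3.3, trend) on 6 group means. Counts recovered from the deposited CPM were tested with edgeR 4.0.16 (quasi-likelihood) and DESeq2 1.42.0 as alternatives. Tested on simulated data for 11431 genes, limma called 36% of 2-fold changes, which lie on the size threshold (60% by adjusted p alone), 88% of 4-fold and 100% of 8-fold changes.

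Named genes were the 6 markers, the 15 called genes with the largest and the 15 with the most negative difference, up to 6 members per list with the largest differences and any against the majority, all ligands and receptors, and the 5 with the smallest interaction p. The members and lists were chosen with earlier results of these data known. The labels name no animals, so p-values measure the spread between pools. Alternatives covered the scaling, filter, pseudocount, tool and single pools. Those that leave out 2 pools together or set missing rows to 0 were chosen after seeing the data. The results for some of the named genes are not reported here.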

Additional observations from a re-analysis of the deposited data

Results flagged for a closer look

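Within the groups of 4 to 6 pools, 44 sets of marker, mitochondrial and opposite-type values were examined. In 13 of them, a pool's gap to its nearest neighbour was large against the group's range. The chance rate of about 1 in 20 cannot be set against this count. The sets share pools, and a lone pool with reads is always flagged where the others have none. Small oocyte pool 3 had 88.7 CPM of INHA, 114 CPM of INHBA and 5% mitochondrial reads. Large oocyte pool 6 had 138 CPM of INHA, 2.68% mitochondrial reads and a median of 10.1% of the CC level over the CC markers. Among CC pools, the level of oocyte markers was 0.109% in small pool 2 and 0.236% in large pool 2, and ZP3 was 0.523 CPM in small pool 3 and 0.221 CPM in spontaneous pool 5, where all other pools of those groups had no read. INHA was 3512 CPM in large CC pool 2, and INHBA was 1037 CPM in small CC pool 4 and 1022 CPM in large CC pool 6.

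Genes with a row in the oocyte table alone, which no test between cell types could use, took 2.98% of oocyte reads in the median pool (2.54 to 3.21%).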

How the results depend on the processing

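The count of called genes stayed within 1.5 times of 8176 under every alternative run, from 6775 (limma treat against a log2 difference of 1) to 8893 (no filter), and from 8151 to 8196 when single pools were left out. It was 8164 without the mitochondrial genes (3720 higher in oocytes, 4444 in CC), 8137 with median-of-ratios scaling (3635 and 4502), 8153 by DESeq2 (3759 and 4394, with no adjusted p for 22 genes) and 8194 (4187 and 4007) without small oocyte 3 and large oocyte 6. The number of genes whose difference varied with the follicle class was 8 by edgeR, 108 by DESeq2 and 0 to 1 when single pools were left out, and 2 both without small oocyte 3 and large oocyte 6 and without small oocyte 3 and small CC 3. It was 1 without small oocyte 3, large oocyte 3 or small CC 3. Among named genes and list medians, 62 calls were lost and 15 gained over all alternatives, and 70 medians of 25 lists moved by more than the spread between pools.

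The sign turned for BMPR2, which is also the median of the ligands and receptors (0.07), to -0.26 without the mitochondrial genes, -0.31 with median-of-ratios scaling, -0.055 by edgeR and -0.32 by DESeq2, for TGFBR1 (-0.28 to 0.065 when single pools were left out) to 0.065 without spontaneous oocyte 1, and for the amino acid transport median to -0.03 by DESeq2. The cause was not tested.

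The study drew oocyte and CC pools from the same complexes, so the libraries are paired by design. Pools with the same number did not deviate together (16 pairs, correlations -0.032 to 0.049). In 5 of the 16, the oocyte pool was closest to the CC pool of its own number. The study removed 1 oocyte pool before library preparation, and the spontaneous class has fewer oocyte than CC pools. Spontaneous numbers may therefore not match between the cell types, here and in the replicate block over all classes. The numbers were not taken to pair the samples, and the main fit treated the pools as unpaired. With the replicate block the count was 8167, and in small and large pools alone 8216 with the block and 8221 without.

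The shallower CC pools limit what can be said of oocyte transcripts in CC: no read allowed up to 1.57 CPM in the shallowest.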
